A study of Homo sapiens with 24 samples.

Results

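The response of unirradiated SAS cells with the E79Q form of NRF2 to CB-839 was taken from 6 of the 24 libraries of the series: 3 of E79Q cells given CB-839 at 0.1 µM and 3 of E79Q cells given vehicle. The members were chosen by their labels alone, and no measured value entered the choice. SAS is an established line from a human oral squamous cell carcinoma. The other libraries used here as comparisons were unirradiated WT cells with vehicle or CB-839 (3 each) and E79Q cells irradiated at 4 Gy with vehicle or CB-839 (3 each). Every group is thus a culture of the same line, and the groups differ in the NRF2 form, the drug and the radiation. The sources used here do not give how the E79Q cells were made, whether they are 1 clone, or whether replicates were separate cultures, so the p-values measure only the spread between these libraries. The protocol gives 24 h of drug or vehicle ahead of radiation; it does not say when unirradiated cells were harvested.

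CB-839 is a drug that keeps cells from turning glutamine into glutamate in mitochondria. Glutamate feeds the TCA cycle, supplies nitrogen for other amino acids, is a building block of glutathione, and leaves the cell in exchange for cystine through the transporter SLC7A11. NRF2, encoded by NFE2L2, is held down by KEAP1 and switches on glutathione, thioredoxin and detoxification genes; E79Q lies in the part of NRF2 that KEAP1 binds. When amino acids run short, cells raise translation of the transcription factor ATF4, which switches on genes for amino acid synthesis, uptake and tRNA charging.

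In all, 15956 genes were tested, and levels are given as CPM, counts scaled to the same library total. Total counts ran from 14285084 to 18853517 in the 6 libraries. Epithelial origin was checked by markers, which test neither the squamous type nor the identity of the line. A list of 16 markers of squamous epithelium summed to between 5866 and 6260.2 CPM with vehicle and between 5354 and 5511 CPM with CB-839. A second list, of 16 markers of leukocytes, endothelium and fibroblasts, summed to between 6.68 and 52.4 CPM. Members of the first list differed widely. With vehicle KRT18 was at 1157 to 1317 CPM, whereas KRT14 was at 13.29 to 13.98 CPM and KRT6A at 6.342 to 8.808 CPM. PTPRC, CD3E, MS4A1, KDR and LUM of the second list were at 0 counts in all 6 libraries. Vehicle library 2 held the highest sum of that list, carried by the collagen genes COL1A1, COL1A2 and COL3A1, the last at 3.94 CPM there and at 0 in the other vehicle libraries. Gene counts carry no information on the allele; NQO1, an NRF2 target, was at 587 ± 22.1 CPM in E79Q cells and 354 ± 3.06 CPM in WT cells with vehicle (mean ± SD, n = 3 each). Expression relative to the group mean varied with gene GC content in all 6 libraries (r = 0.50, -0.342 and -0.225 in vehicle libraries 1, 2 and 3 and 0.189, -0.384 and 0.213 in CB-839 libraries 1, 2 and 3, across genes with a mean log2 CPM above 3), and mitochondrially encoded genes took 1.93% to 3.06% of counts, least in vehicle library 1.

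CB-839 changed 3181 genes (19.9% of those tested) at an edgeR quasi-likelihood adjusted p under 0.05: 1506 were higher (9.44%) and 1675 lower (10.5%). Most changes were small, with a median absolute log2 fold change of 0.36 among the called genes. Only 359 of them passed 2-fold, 273 higher and 86 lower, and of these 183 and 53 had a mean log2 CPM under 1. The median log2 fold change over all tested genes was 0.02. Leaving out vehicle library 1 gave 2328 calls, and leaving out CB-839 library 2 gave 2225. Removing the trend on GC content gave 3980 calls, 2128 higher and 1852 lower.

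The largest rises and falls were read among protein-coding genes whose mean log2 CPM reached 1 and whose vehicle and CB-839 libraries did not overlap. FAM129A, a stress gene downstream of ATF4 that is also called NIBAN1, stood at 2.78, 3.47 and 3.11 CPM with vehicle and at 18.3, 18.1 and 13.9 CPM with CB-839. Its log2 fold change was 2.42 ± 0.16, adjusted p = 9.1e-13. SLC1A4, a transporter of neutral amino acids including serine, had 4.68, 2.23 and 2.77 CPM with vehicle and 10.2, 11.7 and 11.4 CPM with CB-839. ALDH1L2, a mitochondrial enzyme of folate metabolism, went from 19.9, 19.2 and 18.3 CPM to 52.7, 53.1 and 52.6 CPM. That the groups do not overlap in these genes and in those that follow was part of the choice.

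Other large rises were those of PMEPA1, TPM1 and FLRT2. PMEPA1, a feedback inhibitor of TGF-beta signalling, had 49.7, 45.4 and 43.1 CPM with vehicle and 155, 145 and 149 CPM with CB-839, a log2 fold change of 1.70 ± 0.07, adjusted p = 8.4e-19. TPM1, an actin-binding tropomyosin, had 57.5, 63.2 and 60.8 CPM and 174, 183 and 174 CPM (1.55 ± 0.06, adjusted p = 2.6e-19). FLRT2, a membrane adhesion protein, had 18.9, 21.7 and 21.1 CPM and 57.2, 61.8 and 59.4 CPM. The CB-839 libraries lay close together in all of these genes. The remaining rises were TMEM255B (2.11), ATOH8 (1.76), PPP1R14C (1.75), RAP1GAP2 (1.67), SCG5 (1.60), WIPI1 (1.55), PRR5L (1.52), RGL3 (1.49) and SEL1L3 (1.47), each given as a log2 fold change. Among them WIPI1 binds the membranes of forming autophagosomes, and ATOH8 is a transcription factor of the basic helix-loop-helix family.

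Of the largest falls, 3 were in genes of lipid metabolism. SREBF1, the transcription factor that drives fatty acid synthesis, stood at 138, 133 and 134 CPM with vehicle and at 46.2, 44.1 and 45.0 CPM with CB-839. Its log2 fold change was -1.58 ± 0.06, adjusted p = 8.3e-19. SCD, which puts the first double bond into fatty acids, had 553, 574 and 592 CPM and 201, 206 and 197 CPM (-1.51 ± 0.05, adjusted p = 4.9e-21). ABCA1, the pump that exports cholesterol, had 19.8, 24.1 and 22.6 CPM and 5.93, 6.64 and 5.74 CPM (-1.86 ± 0.13, adjusted p = 7.5e-13). Levels within each group differed little beside the distance between the groups.

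ELF3, an epithelial transcription factor, had 17.3, 18.9 and 19.9 CPM with vehicle and 3.93, 4.25 and 5.19 CPM with CB-839 (-2.06 ± 0.12, adjusted p = 6.8e-15). VIM, the intermediate filament of mesenchymal cells, had 181, 178 and 169.8 CPM and 53.5, 54.0 and 60.6 CPM (-1.65 ± 0.07, adjusted p = 5.6e-18). DIO2, the enzyme that activates thyroid hormone, had 115, 133 and 139 CPM and 31.3, 34.8 and 32.1 CPM (-1.98 ± 0.12, adjusted p = 2e-10). The other falls were TNFSF9 (-1.79), a ligand that costimulates T cells, VSIR (-1.48), an immune checkpoint protein also called VISTA, RGS4 (-1.89), COL13A1 (-1.77), AQP3 (-1.49), CRISPLD2 (-1.47), NR5A2 (-1.39) and IGFBP6 (-1.34), each as a log2 fold change. COL1A1 also met the rule, with 7.29, 29.5 and 6.51 CPM and 3.17, 3.01 and 3.20 CPM (-2.20 ± 0.44, adjusted p = 0.0015); without vehicle library 2 its log2 fold change was -1.14, adjusted p = 1.5e-05, and it was not called in the 6 libraries fitted alone (adjusted p = 0.1575). COL1A2 stood at 0.653, 15.3 and 0.736 CPM with vehicle and at 0.483, 0.554 and 0.552 CPM with CB-839, so that its fall rested on vehicle library 2 (log2 fold change without it -0.38, adjusted p = 0.69), and the call was also lost without any 1 of the CB-839 libraries (adjusted p from 0.05544 to 0.06165).

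**Figure D1:**
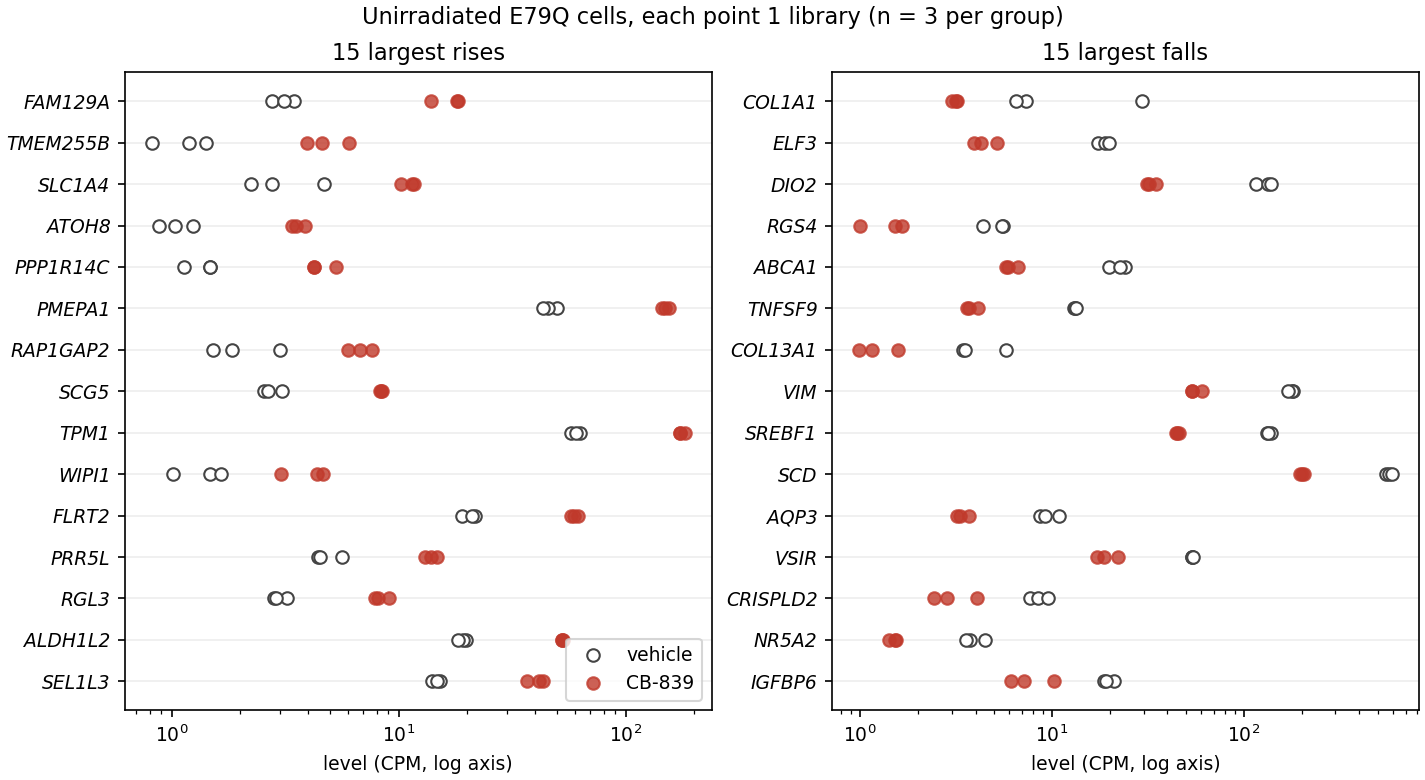
Levels of the 15 largest rises (left) and the 15 largest falls (right) in unirradiated E79Q cells, in CPM on a log axis; each point is 1 library, open for vehicle and filled for CB-839. Genes were chosen for groups that do not overlap; COL1A1 has 1 vehicle library at 29.5 CPM, far above the other 2.

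The genes around ATF4 and CHOP, the factors that act when amino acids or protein folding fail, were followed with a list of 24 genes. Of these, 16 were higher and 1 was lower, against 9.44% and 10.5% of all tested genes, and the list's median log2 fold change was 0.44 against 0.02 over all genes. The same all-gene values are the background for every list of unirradiated E79Q cells that follows. The number of members higher ran from 11 (with no filter on low counts) to 19 (with the GC trend removed) over the alternatives other than the test against a 1.5-fold change. CHAC1, an enzyme that breaks down glutathione, had 12.6, 11.3 and 10.0 CPM with vehicle and 18.9, 17.1 and 16.4 CPM with CB-839 (0.62 ± 0.14, adjusted p = 0.0012). TRIB3, a pseudokinase that feeds back on ATF4, had 70.0, 58.7 and 64.7 CPM and 96.4, 96.7 and 96.4 CPM (0.58 ± 0.07, adjusted p = 9.9e-08). SESN2, a leucine sensor that restrains mTORC1, had 16.4, 13.0 and 16.5 CPM and 25.03, 22.9 and 24.3 CPM (0.65 ± 0.10, adjusted p = 5.8e-06). The CB-839 libraries were above the vehicle libraries in each of these. Members named in this and later lists were mostly those of smallest p, a choice that favours groups that do not overlap. Such separation is therefore no added support, and its share over all tested genes is not given here. DDIT3, which encodes CHOP, had 6.91, 4.76 and 7.53 CPM and 9.51, 9.91 and 9.27 CPM (0.58 ± 0.14, adjusted p = 0.0036), and XPOT, which carries tRNA out of the nucleus, had 195, 205 and 201 CPM and 275, 289.9 and 282 CPM (0.50 ± 0.07, adjusted p = 6.1e-06).

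ATF4 itself showed no called change in its own messenger RNA, with 284, 272 and 302 CPM with vehicle and 316, 284 and 279.6 CPM with CB-839 (0.04 ± 0.06, adjusted p = 0.73); its protein was not measured. Other members that were not called included ATF3 (-0.23 ± 0.22, adjusted p = 0.53), DDIT4 (0.03 ± 0.10, adjusted p = 0.86) and GDF15 (0.33 ± 0.14, adjusted p = 0.097). Of these, ATF3 is a stress-induced repressor, DDIT4 restrains mTORC1, and GDF15 is a secreted stress hormone. The lowest log2 fold change of the list, -1.56, was also of a member that was not called. ATF5, a relative of ATF4, was the 1 member called lower, with 31.5, 25.7 and 28.7 CPM and 25.4, 20.8 and 21.4 CPM (-0.35 ± 0.11, adjusted p = 0.016). Its call was lost without vehicle library 1 (adjusted p = 0.1135), CB-839 library 2 (0.09348) or CB-839 library 3 (0.07711). TNFRSF10B, a death receptor that CHOP induces, rose by 0.21 on the log2 scale, and its call was lost without CB-839 library 3 (adjusted p = 0.053) and with no filter on low counts (0.051). STC2, a secreted glycoprotein, had a log2 fold change of 0.31 ± 0.05, adjusted p = 1.1e-05.

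ATF4 binds, with partners of the C/EBP family, a composite element whose core reads TGATGNAA. This core was searched on both strands (TTNCATCA on the other) in the 250 bases ahead of the start of each gene in RefSeq's promoter table (build GRCh38.p14), and 1056 of 27058 genes (3.9%) held it. Of the genes of the lists that were in that table, it was found in 4 of 19 of the ATF4 and CHOP list (21.1%), in 2 of 10 of the serine, folate, asparagine and proline list (20%), in 3 of 16 tRNA synthetases (18.8%) and in 2 of 20 amino acid transporters (10%). A match is a description of these letters, not a measured binding site. The stretches below are shown as the matches among called genes of these lists that the text describes; they run 5′ to 3′ along the gene's strand, the core is in capitals, and the first base of the core lies 68, 209, 42, 33, 13 and 97 bases ahead of the start in the order given.
ASNS, asparagine synthetase, chr7:97872442-97872502, minus strand: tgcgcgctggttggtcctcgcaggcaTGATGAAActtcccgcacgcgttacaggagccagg
CHAC1, chr15:40953236-40953296, plus strand, core on the other strand: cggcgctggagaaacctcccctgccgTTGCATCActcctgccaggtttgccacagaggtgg
CEBPG, a C/EBP partner of ATF4, chr19:33374045-33374105, plus strand: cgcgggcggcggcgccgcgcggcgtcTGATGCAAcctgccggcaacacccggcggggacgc
GARS, glycyl-tRNA synthetase, chr7:30594819-30594877, plus strand, core on the other strand: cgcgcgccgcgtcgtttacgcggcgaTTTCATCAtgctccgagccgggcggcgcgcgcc
IARS, isoleucyl-tRNA synthetase, chr9:92293698-92293736, minus strand, core on the other strand: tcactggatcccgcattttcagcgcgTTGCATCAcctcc
SLC1A5, a glutamine transporter, chr19:46784877-46784937, minus strand: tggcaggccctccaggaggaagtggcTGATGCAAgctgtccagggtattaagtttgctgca
The log2 fold changes of these genes with CB-839 were 0.77 (ASNS), 0.62 (CHAC1), 0.55 (CEBPG), 0.36 (GARS), 0.33 (IARS) and 0.40 (SLC1A5), and all 6 were called. CEBPG and IARS lie outside the rule for named genes and were chosen for holding the core, with their values known. Of the other genes of these lists with the core, JDP2 and SLC1A3 were called higher, and ATF3, MTHFD1L and AARS were not called.

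The enzymes that make serine, folate carriers, asparagine and proline formed a list of 15 genes, of which 8 were higher and 2 lower, with a median log2 fold change of 0.20. The 8 became 5 without vehicle library 3 or CB-839 library 1, and the 2 lower became 1 without any 1 of the 6 libraries. PHGDH, the first enzyme of serine synthesis, had 242, 201 and 229 CPM with vehicle and 419, 405 and 415 CPM with CB-839 (0.88 ± 0.06, adjusted p = 4.6e-12). PSAT1, the next enzyme, takes its amino group from glutamate and had 169, 168 and 181 CPM and 279, 281 and 261 CPM (0.66 ± 0.05, adjusted p = 6.1e-12). PYCR1, the last step of proline synthesis, had 44.5, 38.6 and 41.7 CPM and 60.3, 58.6 and 63.9 CPM (0.55 ± 0.08, adjusted p = 2e-06). All of the CB-839 libraries exceeded all of the vehicle libraries in these enzymes, as a choice by small p favours. ASNS was lowly expressed, with 2.56, 2.70 and 1.53 CPM and 4.55, 4.00 and 3.09 CPM (0.77 ± 0.23, adjusted p = 0.018), and its call was lost without vehicle library 3 (adjusted p = 0.1304), CB-839 library 1 (0.09229) or CB-839 library 2 (0.06068). ALDH18A1, which starts proline synthesis from glutamate, fell, with 229, 209 and 223 CPM and 188, 191 and 185 CPM (-0.23 ± 0.05, adjusted p = 0.0014).

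Cytosolic tRNA synthetases, which load tRNAs with amino acids, split in both directions: 8 of 20 were higher and 5 lower (median log2 fold change 0.19). Without CB-839 library 2 the 5 lower became 3. CARS (cysteine), WARS (tryptophan), GARS (glycine) and SARS (serine) rose by 0.42, 0.39, 0.36 and 0.32 on the log2 scale. For CARS the libraries read 56.7, 51.7 and 54.3 CPM with vehicle and 72.0, 74.0 and 72.3 CPM with CB-839. VARS (valine), KARS (lysine) and DARS (aspartate) changed by -0.44, -0.22 and -0.24, all lower. VARS read 184, 164 and 169.9 CPM and 125, 122 and 134 CPM, so that the largest fall of the list was about as large as its largest rise. Of 20 tested amino acid transporters, 5 were higher and 2 lower, with a median of 0.18; removing the GC trend made these 10 and 4, and the 2 lower became 1 without vehicle library 1 or 3 or CB-839 library 1 or 3.

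SLC6A9, a glycine transporter, had 3.81, 5.58 and 5.26 CPM with vehicle and 11.8, 9.84 and 10.3 CPM with CB-839 (1.12 ± 0.15, adjusted p = 1e-06). SLC1A5, which brings glutamine into the cell, had 212, 209 and 207 CPM and 283, 269 and 278 CPM (0.40 ± 0.05, adjusted p = 1.1e-06). SLC38A9, the arginine sensor of the lysosome, had 15.9, 19.8 and 17.7 CPM and 24.96, 24.6 and 28.0 CPM (0.54 ± 0.09, adjusted p = 5.7e-05). The libraries of the groups did not overlap in these transporters. SLC38A5, which also carries glutamine, fell, with 187, 172 and 181 CPM and 135, 135 and 137 CPM (-0.41 ± 0.06, adjusted p = 6.9e-06). SLC7A11, the cystine and glutamate exchanger that NRF2 and ATF4 both control, read 410.2, 453 and 445 CPM and 514, 552 and 516 CPM; its groups did not overlap, but its log2 fold change of 0.28 ± 0.14, adjusted p = 0.19 was not called.

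Enzymes that make or use glutamine and glutamate moved both ways: 5 of 21 were higher and 6 lower (median -0.04), against 9.44% and 10.5% of all tested genes. The 5 became 3 without vehicle library 3, CB-839 library 1 or CB-839 library 2. GPT2, which makes alanine from glutamate in mitochondria, had 57.8, 46.1 and 51.4 CPM with vehicle and 82.9, 74.3 and 81.3 CPM with CB-839 (0.62 ± 0.07, adjusted p = 1.7e-07). GLUL, which makes glutamine from glutamate, had 198, 189.7 and 203 CPM and 162, 154 and 167 CPM (-0.29 ± 0.05, adjusted p = 5.6e-05). GPT2 and GLUL thus changed in opposite directions. PFAS, which spends glutamine in purine synthesis, had 207, 195 and 197 CPM and 143, 149 and 145 CPM (-0.45 ± 0.05, adjusted p = 1.3e-07), GOT2, the mitochondrial aspartate transaminase, fell by 0.27 and GLUD1, glutamate dehydrogenase, by 0.20 on the log2 scale. GCLC, which joins glutamate to cysteine for glutathione, was not called (-0.04 ± 0.07, adjusted p = 0.74).

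Of 29 genes of the TCA cycle and pyruvate entry, 8 were lower and 1 was higher (median -0.13), against 10.5% and 9.44% of all tested genes. Without vehicle library 3, 5 were lower. CS, citrate synthase, had 265, 246 and 256 CPM with vehicle and 182, 183 and 185 CPM with CB-839 (-0.48 ± 0.05, adjusted p = 5.1e-09). ME2, a mitochondrial malic enzyme, had 88.4, 95.0 and 93.7 CPM and 72.3, 70.0 and 68.6 CPM (-0.39 ± 0.06, adjusted p = 8.4e-06), and MDH2 and OGDH changed by -0.29 and -0.29. Every CB-839 library lay below every vehicle library for CS and ME2. ME3, another malic enzyme and lowly expressed, was the member that rose, with 1.85, 1.47 and 1.70 CPM and 4.00, 3.08 and 2.76 CPM (0.96 ± 0.25, adjusted p = 0.0066). Among 30 nuclear subunits of the respiratory chain, 6 were lower and 2 higher (median -0.05). Over all tested genes the shares were 10.5% and 9.44%, or 19.9% in either direction. ATP5F1A was at -0.29 and UQCRFS1 at -0.36. The 2 higher became 1 without vehicle library 1, vehicle library 2 or CB-839 library 3, and 0 without CB-839 library 1. Of 13 mitochondrially encoded messenger RNAs, 3 were higher and none lower (median 0.21). MT-ND1 had 1036, 1397 and 1479 CPM and 2334, 2469.6 and 2329.5 CPM (0.87 ± 0.11, adjusted p = 1.8e-05); 1 of the 13 was higher without vehicle library 1, which had the lowest mitochondrial share, without CB-839 library 2 or without CB-839 library 3, and 1 was lower without CB-839 library 1.

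Genes of the unfolded protein response, which expand folding capacity in the endoplasmic reticulum, were higher in 14 of 21 cases and lower in none (median 0.24). XBP1, a transcription factor of that response, had 45.9, 45.1 and 48.1 CPM with vehicle and 72.5, 62.3 and 60.8 CPM with CB-839 (0.49 ± 0.08, adjusted p = 2.9e-05). HERPUD1, which serves the disposal of misfolded proteins, had 35.8, 32.6 and 32.5 CPM and 47.1, 47.4 and 46.5 CPM (0.48 ± 0.07, adjusted p = 1e-05). HSPA5, the chaperone BiP, had 963, 1033 and 1029 CPM and 1168, 1154 and 1168 CPM (0.21 ± 0.05, adjusted p = 0.0011), and the disulfide isomerases PDIA3 and PDIA4 rose by 0.27 and 0.26. The rises were under 1.5-fold in each of these genes. Cytosolic and mitochondrial heat shock genes went the other way, with 6 of 17 lower and none higher (median -0.09). HSP90AB1 had 3753, 3764 and 3879.7 CPM and 2783, 2822 and 2797 CPM (-0.44 ± 0.04, adjusted p = 1.1e-09), and HSPA8 and HSPE1 changed by -0.24 and -0.30.

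**Figure D2:**
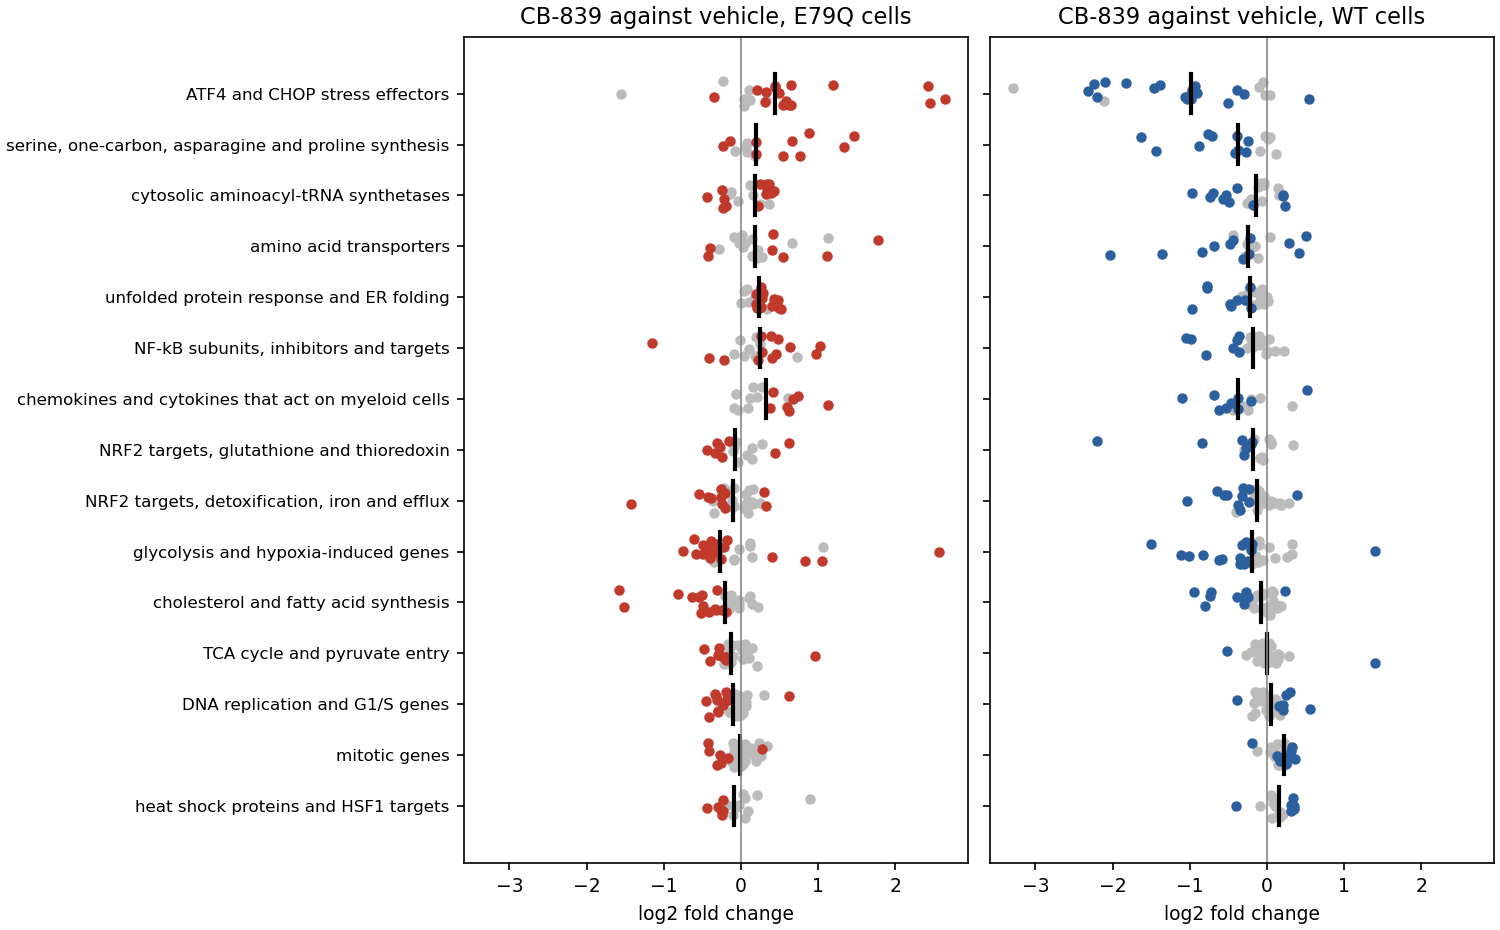
Log2 fold changes with CB-839 against vehicle in unirradiated E79Q cells (left) and WT cells (right) for the tested members of 15 of the 30 gene lists; each point is 1 gene, coloured where the adjusted p is under 0.05 and grey otherwise, and the black bar is the list's median. The ATF4 and CHOP list has its median at 0.44 in E79Q cells and at -0.99 in WT cells, and the list of cholesterol and fatty acid synthesis at -0.21 and -0.08.

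Among NRF2's own targets, more were called lower than higher, against 10.5% lower and 9.44% higher of all tested genes. Of 16 tested genes of glutathione and thioredoxin, 2 were higher and 6 lower (median -0.08), the 2 becoming 1 without vehicle library 3 or CB-839 library 1. Of 29 genes of detoxification, iron and efflux, 2 were higher and 9 lower (median -0.10). The 9 became 4 without vehicle library 1, 5 without vehicle library 3, 3 without CB-839 library 2 and 2 without CB-839 library 3. NQO1, a quinone reductase, read 612, 574 and 574 CPM with vehicle and 672, 604 and 598 CPM with CB-839 (0.09 ± 0.06, adjusted p = 0.36). GCLM, the modifier subunit of glutathione synthesis, read 329, 316 and 297 CPM and 301, 291 and 283 CPM (-0.11 ± 0.05, adjusted p = 0.16). Neither was called. TXNRD1, thioredoxin reductase, fell, with 1841, 1846 and 1827 CPM and 1519.5, 1494 and 1439 CPM (-0.31 ± 0.05, adjusted p = 1.7e-05), as did the peroxiredoxin PRDX1 (-0.27 ± 0.05, adjusted p = 0.00014) and glutathione reductase, GSR (-0.25 ± 0.06, adjusted p = 0.002). In WT cells the drug also left more of these 2 lists lower: 7 of 16 and 10 of 29, with 0 and 1 higher. There the shares over all tested genes were 8.5% lower and 6.34% higher.

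FTH1, the ferritin heavy chain, rose, with 674, 606 and 601 CPM with vehicle and 802, 746 and 804 CPM with CB-839 (0.32 ± 0.06, adjusted p = 0.00026), and SQSTM1, an autophagy receptor that also binds KEAP1, rose by 0.30. AKR1C1, a ketosteroid reductase with close paralogs among which reads can be split, had 61.8, 56.1 and 56.4 CPM and 51.8, 44.7 and 50.1 CPM (-0.25 ± 0.08, adjusted p = 0.03). Its call was lost without vehicle library 1 (adjusted p = 0.1503), CB-839 library 2 (0.1739) or CB-839 library 3 (0.05463), and with the GC trend removed (0.05776). NFE2L2 read 131, 137 and 135 CPM and 133, 136 and 125 CPM (-0.04 ± 0.06, adjusted p = 0.76). KEAP1 read 108, 99.3 and 109 CPM and 91.8, 91.5 and 91.1 CPM (-0.20 ± 0.06, adjusted p = 0.023), and its call held in 1 of the 6 fits that left out a library, with adjusted p up to 0.09737. Of 10 enzymes that supply NADPH, 3 were lower and 1 higher (median -0.12), the 1 being called in none of the fits without vehicle library 1 or 3 or any CB-839 library. The cytosolic isocitrate dehydrogenase IDH1 (-0.58 ± 0.06, adjusted p = 3.4e-09), transketolase, TKT (-0.39 ± 0.06, adjusted p = 2.2e-05), and PGD of the pentose phosphate pathway (-0.24 ± 0.06, adjusted p = 0.0032) were the ones lower.

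Genes of cholesterol and fatty acid synthesis were lower in 14 of 29 cases and higher in none (median -0.21). Beside SREBF1 and SCD, FASN, fatty acid synthase, had 1681, 1575 and 1564 CPM with vehicle and 1087, 1087 and 1144 CPM with CB-839 (-0.54 ± 0.06, adjusted p = 9.8e-09). Not every gene of sterol synthesis fell: HMGCS1, an early enzyme of the pathway, read 105, 117 and 115 CPM and 119.6, 120.2 and 124 CPM and was not called (0.11 ± 0.07, adjusted p = 0.29). In a test against a 1.5-fold change SREBF1 and SCD were called, and FASN was not.

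Of 28 tested genes of glycolysis and the hypoxia response, 15 were lower and 4 higher (median -0.27). LDHA, lactate dehydrogenase, had 1101, 1112 and 1119 CPM with vehicle and 758, 733 and 735 CPM with CB-839 (-0.58 ± 0.04, adjusted p = 2.3e-12). SLC2A1, the glucose transporter GLUT1, had 343, 333 and 336 CPM and 224, 216 and 226 CPM (-0.60 ± 0.06, adjusted p = 1.5e-09). GAPDH had 3704, 3487 and 3582 CPM and 2652, 2475 and 2513 CPM (-0.50 ± 0.06, adjusted p = 1.2e-07), and SLC16A3, which exports lactate, changed by -0.49. Each of these genes was lower in every CB-839 library than in any vehicle library. The members that rose were ANGPTL4, a lowly expressed and secreted lipase inhibitor (0.544, 1.06 and 0.679 CPM with vehicle and 5.65, 3.63 and 4.30 CPM with CB-839, 2.57 ± 0.30, adjusted p = 9.6e-08), PFKFB4, which tunes glycolytic flux (0.83 ± 0.11, adjusted p = 8.3e-07), CA12, a carbonic anhydrase (1.05 ± 0.26, adjusted p = 0.0039), and NDRG1, a stress-responsive gene (0.40 ± 0.08, adjusted p = 0.00071). TXNIP and ARRDC4, arrestins that limit glucose uptake and are switched on by MondoA and ChREBP, rose together. TXNIP had 14.8, 14.99 and 16.2 CPM and 31.0, 34.2 and 28.5 CPM (1.02 ± 0.09, adjusted p = 2.5e-10), and ARRDC4 had 7.18, 7.64 and 6.96 CPM and 14.5, 12.1 and 14.3 CPM (0.91 ± 0.11, adjusted p = 2.6e-07); 2 of the 4 tested genes of that short list were called.

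Chemokines and cytokines that act on myeloid cells were higher in 7 of 16 tested cases and lower in none (median 0.32); 11 of the 27 listed genes did not pass the filter on low counts. CCL20, which draws dendritic cells and some lymphocytes through CCR6, had 9.74, 10.2 and 9.23 CPM with vehicle and 22.7, 20.2 and 20.9 CPM with CB-839 (1.13 ± 0.11, adjusted p = 6.5e-09). CXCL8, which draws neutrophils, had 16.1, 15.7 and 15.8 CPM and 24.4, 25.3 and 23.5 CPM (0.62 ± 0.09, adjusted p = 1.7e-06). CXCL1, of the same receptor family, had 41.0, 33.1 and 31.1 CPM and 47.9, 45.8 and 46.3 CPM (0.41 ± 0.10, adjusted p = 0.0026). No vehicle library reached a CB-839 library in these genes. IL11 rose by 0.59 and LIF by 0.38, while CSF1 (-0.03 ± 0.11, adjusted p = 0.88), CSF2 (0.27 ± 0.20, adjusted p = 0.38) and IL6 (0.15 ± 0.17, adjusted p = 0.58), growth factors and a cytokine of myeloid cells, were not called. CD274, the gene of the immune checkpoint protein PD-L1, had 11.5, 12.8 and 10.7 CPM and 19.4, 18.8 and 16.4 CPM (0.64 ± 0.12, adjusted p = 0.00015).

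Of 21 genes of the NF-kB pathway, 10 were higher and 3 lower (median 0.25). TNFAIP3, the deubiquitinase A20 that restrains NF-kB, had 33.4, 29.1 and 27.5 CPM with vehicle and 59.3, 62.0 and 62.4 CPM with CB-839 (1.03 ± 0.07, adjusted p = 1.8e-12). IRAK2, a kinase below Toll-like and IL-1 receptors, had 17.5, 16.3 and 14.2 CPM and 23.8, 27.01 and 23.6 CPM (0.63 ± 0.09, adjusted p = 6.3e-06). SOD2, the mitochondrial superoxide dismutase, rose by 0.27. BCL3, a nuclear partner of NF-kB, went against these, with 16.2, 16.5 and 16.9 CPM and 7.24, 7.44 and 7.56 CPM (-1.15 ± 0.13, adjusted p = 2.4e-08), and TNFAIP2 changed by -0.41. Immediate early genes were mixed (5 of 21 higher, 3 lower, median 0.09; 10 higher with the GC trend removed), with EGR1 at 0.59, KLF4 at 0.91 and DUSP6 at 0.51, all higher, and KLF6 at -0.43, lower.

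CDKN1A, the cell cycle inhibitor p21 and a target of p53, had 44.4, 36.4 and 33.8 CPM with vehicle and 64.8, 60.2 and 62.8 CPM with CB-839 (0.71 ± 0.08, adjusted p = 9e-08). The p53 targets as a list were mixed: of 25, 4 were higher and 4 lower (median 0.03), against 9.44% and 10.5% of all tested genes. PLK2 had 256, 268 and 269 CPM and 171, 177 and 173 CPM (-0.61 ± 0.05, adjusted p = 1.9e-10), and CCNG1 changed by -0.48. MDM2, the ligase that degrades p53, read 106, 114 and 108 CPM and 109.6, 113 and 113 CPM and was not called (0.03 ± 0.08, adjusted p = 0.84). Genes of DNA replication were lower in 11 of 31 cases and higher in 1 (median -0.10), against 10.5% and 9.44% of all tested genes. MCM2, a subunit of the replicative helicase, had 471, 426 and 430.3 CPM and 334, 319 and 344 CPM (-0.41 ± 0.06, adjusted p = 1.7e-05), and ORC1, which marks origins, changed by -0.45. CCNE2, a cyclin of S phase entry, was the member that rose, with 13.7, 13.9 and 14.3 CPM and 21.0, 21.3 and 21.9 CPM (0.62 ± 0.12, adjusted p = 0.0002). Of 30 mitotic genes, 6 were lower and 1 higher (median -0.01), against 10.5% and 9.44% of all tested genes (19.9% in either direction). None was higher without CB-839 library 2. CDC20, which activates the anaphase-promoting complex, had 493, 447 and 467 CPM and 353, 341 and 349 CPM (-0.43 ± 0.06, adjusted p = 4.9e-06), and the mitotic kinase PLK1 changed by -0.41.

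Matrix and cytoskeletal genes divided. Of 26 mesenchymal, YAP and actin-binding genes, 7 were higher and 7 lower (median -0.05). FN1, fibronectin, had 613, 688 and 667 CPM with vehicle and 1298, 1407 and 1397 CPM with CB-839 (1.06 ± 0.06, adjusted p = 9.6e-16). CTGF, a YAP target, rose by 0.68 on the log2 scale. VIM and the collagen crosslinker LOXL2 (-0.62 ± 0.06, adjusted p = 1.2e-09) fell, so that FN1 and VIM, both used as mesenchymal markers, moved apart. Among 23 proteases and secreted factors, 10 were higher and 5 lower (median 0.20): MMP2 and MMP14, which cleave matrix, rose by 0.49 and 0.36, while the collagenase MMP1 had 819, 760.5 and 702 CPM and 559.9, 497 and 521 CPM (-0.53 ± 0.05, adjusted p = 5.8e-09) and PLAT, a plasminogen activator, changed by -1.10. HBEGF, a ligand of EGFR, had 55.8, 52.3 and 52.5 CPM and 91.4, 79.5 and 77.2 CPM (0.63 ± 0.07, adjusted p = 2.6e-08).

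Keratins and squamous differentiation genes were lower in 6 of 25 tested cases and higher in 1 (median -0.09), against 10.5% and 9.44% of all tested genes. KRT19, a keratin of simple and malignant epithelium, had 151, 141 and 147 CPM with vehicle and 96.0, 94.1 and 94.1 CPM with CB-839 (-0.63 ± 0.06, adjusted p = 4.1e-09). KRT5, a basal keratin, had 905, 879.7 and 934 CPM and 723, 693 and 685 CPM (-0.37 ± 0.06, adjusted p = 2.8e-05). KLK5, a kallikrein protease, rose, with 52.0, 47.9 and 48.5 CPM and 75.3, 70.1 and 78.0 CPM (0.59 ± 0.07, adjusted p = 3.5e-07), whereas KLK10 of the same family had 17.6, 15.05 and 15.1 CPM and 7.79, 9.91 and 9.66 CPM (-0.80 ± 0.10, adjusted p = 4.1e-07). Of 25 lysosome and autophagy genes, 5 were higher and 1 lower (median 0.06). Over all tested genes the shares were 9.44% and 10.5%, or 19.9% in either direction. GABARAPL1 was at 0.44 and ULK1 at 0.30, both higher. Interferon-stimulated genes had 3 of 24 members higher and 2 lower (median 0.10), close to the 19.9% of all tested genes called in either direction; the 2 lower became 1 without vehicle library 1 or CB-839 library 2. Of 19 genes of MHC class I presentation and checkpoint ligands, 5 were higher and 3 lower (median 0.12), against 9.44% and 10.5% of all tested genes. Without vehicle library 3, 1 was lower. ERAP1, which trims peptides for MHC class I, rose by 0.42 on the log2 scale.

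The same drug gave another pattern in unirradiated WT cells, where 1012 genes were higher (6.34%) and 1356 lower (8.5%). No library was shared between the 2 comparisons. The drug's effect differed between the genotypes for 2312 genes, 1200 with a larger value in E79Q cells (7.52%) and 1112 with a smaller one (6.97%). Of the genes higher in E79Q cells, 279 (18.5%) were also higher in WT cells, which is 27.6% of the genes higher there; of those lower, 342 were lower in both (20.4% and 25.2%). In addition, 185 genes were higher in E79Q and lower in WT cells, and 136 the reverse. The difference was called for all of these genes, but choosing them by opposite called effects nearly fixed that outcome. Across genes, which are not independent, the log2 fold changes of the 2 genotypes had a Pearson r of 0.18.

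In the ATF4 and CHOP list, 16 of 24 members were higher in E79Q cells, whereas 17 were lower and 1 higher in WT cells (median -0.99). The difference of effects was called with the larger value in E79Q cells for 22 members and with the smaller one for 1. CHAC1 stood at 18.2 ± 0.491 CPM (mean ± SD, n = 3) in WT cells with vehicle and 3.97 ± 1.20 with CB-839, and at 11.3 ± 1.30 and 17.5 ± 1.27 in E79Q cells. The difference of its effects was 2.82 ± 0.21, adjusted p = 1.1e-11. ATF4 changed by -1.06 ± 0.06 in WT cells, and its difference was 1.10 ± 0.08, adjusted p = 1.9e-11. The mean of ATF4 was 384 ± 21.6 and 184 ± 2.11 CPM in WT cells and 286 ± 15.1 and 293 ± 20.1 CPM in E79Q cells (vehicle and CB-839). The difference for SLC6A9 was 3.16 ± 0.22, adjusted p = 4e-12, that for GDF15 2.57 ± 0.19, adjusted p = 7.3e-12 and that for DDIT4 2.35 ± 0.13, adjusted p = 2.7e-14. GDF15 and DDIT4 fell in WT cells (-2.24 ± 0.12 and -2.32 ± 0.09) and were not called in E79Q cells.

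PHGDH was at 299 ± 8.37 and 229 ± 13.7 CPM in WT cells and at 224 ± 21.1 and 413 ± 7.07 CPM in E79Q cells (vehicle and CB-839, mean ± SD, n = 3), a difference of effects of 1.26 ± 0.09, adjusted p = 5.4e-12. In WT cells 9 of 21 members of the unfolded protein response were lower and none higher, and 16 had a called difference, all toward a larger value in E79Q cells. CCL20 (1.82 ± 0.17, adjusted p = 1.9e-09), CXCL8 (0.99 ± 0.13, adjusted p = 2.9e-06), TNFAIP3 (1.04 ± 0.10, adjusted p = 8.6e-09), CDKN1A (1.72 ± 0.12, adjusted p = 2.3e-12) and TXNIP (1.51 ± 0.13, adjusted p = 1.3e-10) also had called differences. WT cells showed -0.69 ± 0.13 for CCL20, -0.37 ± 0.10 for CXCL8, -1.01 ± 0.08 for CDKN1A and -0.48 ± 0.09 for TXNIP, all lower, and no called change for TNFAIP3 (-0.01 ± 0.08).

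Other responses ran in the same direction in both genotypes. PMEPA1 (1.70 and 1.53 ± 0.07), TPM1 (1.55 and 1.35 ± 0.06) and FLRT2 (1.53 and 1.54 ± 0.12) rose in both, and none of their differences was called (0.17 ± 0.10, adjusted p = 0.28 for PMEPA1). SREBF1 (-1.58 and -0.80 ± 0.06), SCD (-1.51 and -0.94 ± 0.05) and VIM (-1.65 and -0.64 ± 0.08) fell in both, with a larger fall in E79Q cells: the differences were -0.78 ± 0.08, adjusted p = 4.5e-08, -0.56 ± 0.07, adjusted p = 2.2e-07 and -1.01 ± 0.10, adjusted p = 1.5e-08. Cholesterol and fatty acid genes had 9 called differences, all toward a lower value in E79Q cells. Mitotic genes, higher in 12 of 30 cases in WT cells, had 10 called differences and heat shock genes 7, again all toward a lower value in E79Q cells.

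**Figure D3:**
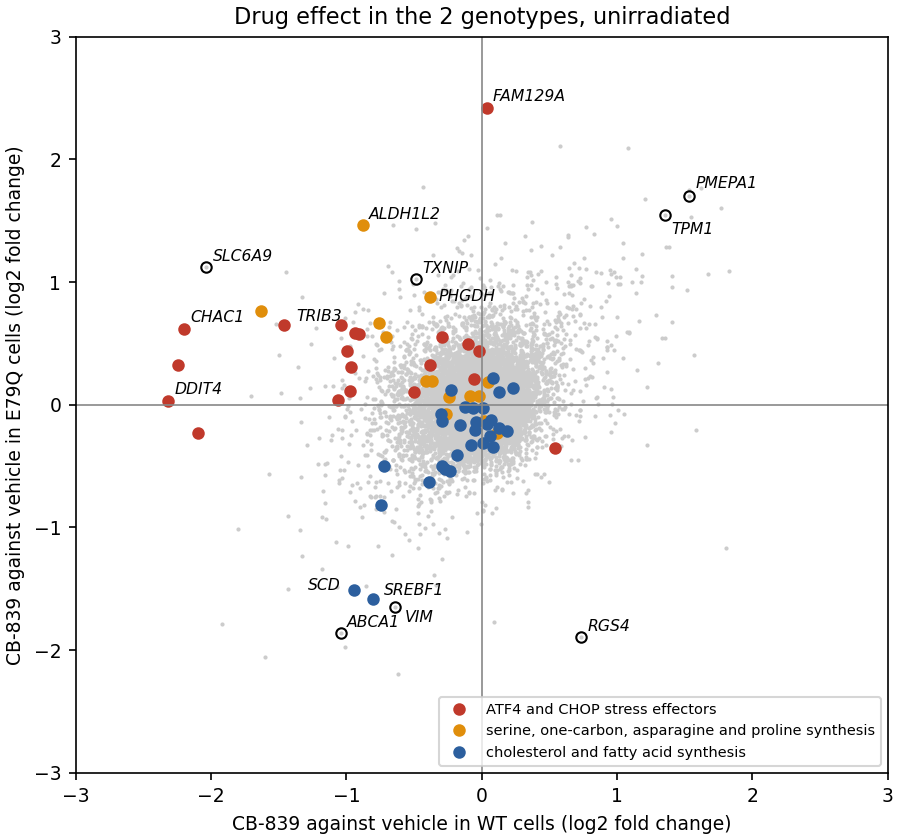
Log2 fold change with CB-839 in unirradiated WT cells (x axis) against that in unirradiated E79Q cells (y axis) for genes with a mean log2 CPM of at least 1 (grey), with 3 gene lists in colour and other named genes circled; points beyond 3 log2 units are not drawn. CHAC1 lies at -2.20 and 0.62, in the upper left, and SCD at -0.94 and -1.51, in the lower left.

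**Figure D4:**
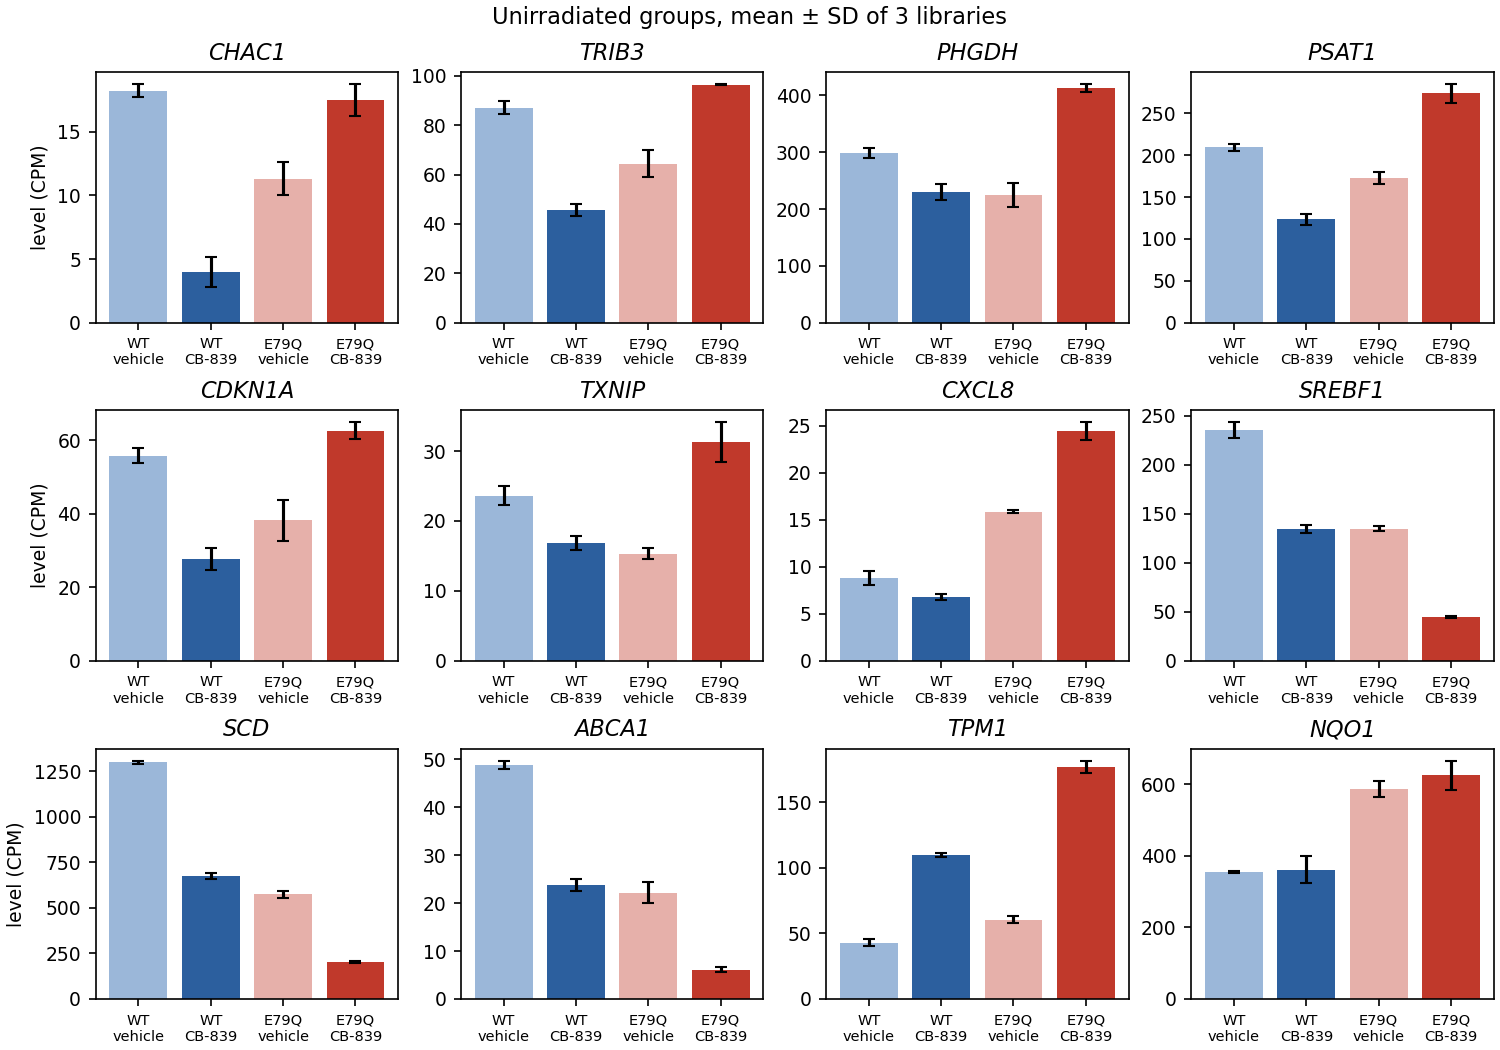
Levels (CPM) of 12 genes in the 4 unirradiated groups; bars are means and error bars the SD of 3 libraries. CHAC1, TRIB3, PHGDH, PSAT1, CDKN1A, TXNIP and CXCL8 are lower with CB-839 in WT cells and higher in E79Q cells, SREBF1, SCD and ABCA1 are lower with the drug in both, and TPM1 is higher in both; NQO1, at 587 ± 22.1 and 625 ± 41.5 CPM in E79Q cells, was called in neither genotype.

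In irradiated E79Q cells the drug made 2044 genes higher (12.8%) and 1973 lower (12.4%). Of the genes higher without radiation, 682 (45.3%) were also higher with it, which is 33.4% of that set, and of those lower, 476 were lower in both (28.4% and 24.1%). The effect differed for 2163 genes, 1246 with a larger value in irradiated cells (7.81%) and 917 with a smaller one (5.75%); with the GC trend removed the split was 700 and 918. This count moved with single libraries: it was 816 without vehicle library 1 and 1032 without CB-839 library 2 of the unirradiated cells, 1362 and 1333 without libraries 1 and 2 of irradiated cells with vehicle, and 4240 and 1184 without libraries 1 and 2 of irradiated cells with CB-839. In the last group libraries 1 and 2 departed from the group mean along GC content (r = -0.753 and 0.754), and the part of this in the result was not tested.

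In irradiated cells the ATF4 and CHOP list was again mostly higher with the drug, with 19 of 24 members higher and none lower (median 0.42). SLC6A9 changed by 1.12 ± 0.14 and CHAC1 by 0.78 ± 0.12 in irradiated cells. SREBF1 fell less than without radiation (-0.72 ± 0.06, difference 0.87 ± 0.09, adjusted p = 6.6e-08), and ELF3 likewise (-0.81 ± 0.11, difference 1.24 ± 0.16, adjusted p = 5.2e-06). Of the myeloid chemokines and cytokines, 4 of 16 were higher and 6 lower (median -0.11), and 7 had a called difference, all toward a lower value in irradiated cells. CXCL1 changed by -0.60 ± 0.09 (difference -1.01 ± 0.13, adjusted p = 9.1e-06) and CCL20 by 0.07 ± 0.10 (difference -1.06 ± 0.15, adjusted p = 3.1e-05). For CXCL8 the difference was -0.77 ± 0.11, adjusted p = 3.5e-05, and this call was lost with the GC trend removed (adjusted p = 0.2442). CD274 was lower with the drug in irradiated cells (-0.33 ± 0.11), against a rise without radiation.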

How the data were processed

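Whole-cell RNA of SAS cells was sequenced as 24 libraries in 8 groups of 3. The authors deposited whole-number read counts per gene for 58735 genes, without normalization; the submitters' processing notes name STAR, HTSeq and the build GRCh38, and the sources used here do not give their versions, settings or use of strand. Reads of overlapping genes, antisense partners and close paralogs (HLA, AKR1C, RGPD, pseudogenes of GAPDH and FTH1) may therefore be split or shared. Libraries were grouped by their labels, and every column of the count table matched 1 sample.

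Genes were kept with edgeR's filterByExpr over the 8 groups (15956 genes). Counts were scaled by TMM and fitted with edgeR 4.0.16 (R 4.3.3) with robust quasi-likelihood and 1 mean per group over all 24 libraries, which leaves 16 residual degrees of freedom. Genes with a Benjamini-Hochberg adjusted p under 0.05 over all tested genes were called. The contrasts were CB-839 minus vehicle in unirradiated E79Q cells, that effect minus the one in WT cells, and the effect in irradiated E79Q cells minus the unirradiated one. Errors after ± are standard errors of log2 fold changes unless SD is stated. Totals of 14285084 to 18853517 counts set the counting precision of each library, and intervals cover neither culture nor clone.

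Named genes were the 15 largest rises and falls among called protein-coding genes whose mean log2 CPM reached 1 and whose libraries did not overlap, the leading called genes of each of 30 lists, a set of key genes, the largest differences between contrasts, and called non-coding RNAs. The members and lists were chosen with earlier results of these data known. Alternatives were DESeq2 1.42.0, limma-voom 3.58.1, other scalings and filters, a block on the replicate number, a 1.5-fold threshold test, fits on fewer libraries, and leaving out each library. Removal of the GC trend was chosen after seeing the data. The code was tested on simulated counts. Promoter sequences are RefSeq's, build GRCh38.p14.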

Additional observations from a re-analysis of the deposited data

Results flagged for a closer look

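Flagged here are results in which the effect of CB-839 differed between groups by a test of the difference itself (edgeR quasi-likelihood, adjusted p under 0.05). Between E79Q and WT cells the effect differed for 2312 genes, and between irradiated and unirradiated E79Q cells for 2163 genes.

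Named genes with the largest values toward E79Q, given as the log2 effect in E79Q minus that in WT cells, were SLC6A9 (3.16), CHAC1 (2.82), GDF15 (2.57), MSC (2.53), ASNS (2.40), FAM129A (2.39), ALDH1L2 (2.35) and DDIT4 (2.35). GDF15 and DDIT4 were not called in E79Q cells. In WT cells GDF15 went from 21.4 to 4.51 CPM and DDIT4 from 107 to 21.5 CPM (means), against 5.25 and 22.9 CPM in E79Q cells with vehicle. MSC encodes a basic helix-loop-helix repressor. Its level was 1.32 ± 0.264 CPM with vehicle and 2.79 ± 0.695 CPM with CB-839 in E79Q cells, and 0.526 ± 0.0927 and 0.189 ± 0.0321 CPM in WT cells (mean ± SD, n = 3 each). Toward WT cells the values were RGS4 (-2.62), COL13A1 (-1.86), CYP2B6 (-1.78), HIST1H2AC (-1.55), DPF3 (-1.17), RAB7B (-1.17), NOG (-1.16) and SORCS3 (-1.13). Of these, CYP2B6, HIST1H2AC, DPF3, NOG and SORCS3 were not called in E79Q cells. RGS4, which shortens G protein signals, fell in E79Q cells (-1.89) and rose in WT cells (0.73 ± 0.21). The call of NOG was lost without vehicle library 1 of E79Q cells (adjusted p = 0.06224) or vehicle library 1 of WT cells (0.06839).

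For radiation, given as the log2 effect in irradiated minus that in unirradiated E79Q cells, the values were DEPP1 (1.70), OTUD1 (1.54), TNFSF9 (1.54), PLEKHG6 (1.36) and ELF3 (1.24) on one side, and CSF3 (-1.55), RGPD8 (-1.55), ZNF449 (-1.48), MATR3 (-1.40) and ST3GAL3 (-1.36) on the other. TNFSF9 fell in unirradiated cells (-1.79 ± 0.16, adjusted p = 8.6e-10), and its effect was -0.25 ± 0.15 with radiation. The call of PLEKHG6 was lost without vehicle library 1 of unirradiated cells (adjusted p = 0.06034) or CB-839 library 2 of irradiated cells (0.05134). That of ST3GAL3 was lost without vehicle library 3 (0.07192) or CB-839 library 3 (0.0878) of unirradiated cells, and without vehicle library 3 (0.05004) or CB-839 library 2 (0.05713) of irradiated cells. RGPD8 belongs to a family of near-identical copies, so that its counts are uncertain.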

How the results depend on the processing

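For the 3181 genes changed by CB-839 in unirradiated E79Q cells, other tools, scalings, filters and sets of libraries gave 2990 to 4044 calls, and leaving out single libraries gave 2225 to 2716. For the 2312 genes whose effect differed from WT cells these were 2131 to 3288, and 1811 to 2157. In the test against a 1.5-fold change, the counts were 122 for the drug, 118 for the difference from WT cells and 13 for the difference with radiation; this test asks for a larger change by construction. The 2163 genes that differed with radiation became 928 in the 12 E79Q libraries fitted alone, and 816 to 4240 when single libraries were left out; the cause was not tested. Of the 223 named genes, 200 were called for the drug, 163 of them in every alternative other than the 1.5-fold test, and none was called in the opposite direction. Whether the same replicate number pairs the libraries is not given by the labels. The correlation of deviations between vehicle and CB-839 libraries of unirradiated E79Q cells was 0.20, 0.214 and -0.116 for numbers 1, 2 and 3. Between unlike numbers it ran from -0.293 to 0.119. With the replicate number as a block the calls were 3005 for the drug, 2119 for the difference from WT cells and 1731 for that with radiation.

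With 3 libraries a group, genes under a mean log2 CPM of 1 are measured least precisely, and they make up 183 of the 273 rises past 2-fold. Whether the replicates are separate cultures, and whether E79Q cells are 1 clone, is not given, so that a difference between genotypes cannot be told apart from one between the 2 cell populations.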

Other observations

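Long non-coding RNAs, which the gene lists do not hold, also changed with CB-839 in unirradiated E79Q cells. H19, an imprinted RNA, had 459, 465 and 451 CPM with vehicle and 164, 157 and 164 CPM with CB-839 (edgeR log2 fold change -1.50 ± 0.06, adjusted p = 5.6e-18). Its effect in irradiated E79Q cells was -0.08 ± 0.06, a difference of 1.42 ± 0.09, adjusted p = 2.7e-12. In those irradiated cells the mean level of H19 was already 198 CPM with vehicle, and 186 CPM with CB-839. In unirradiated WT cells H19 also fell with the drug (log2 fold change -1.43 ± 0.06). MIR4435-2HG (-0.64 ± 0.08, adjusted p = 2.2e-07), UCA1 (-0.46 ± 0.06, adjusted p = 1.7e-06), LINC00958 (-0.42 ± 0.06, adjusted p = 1.4e-06) and DANCR (-0.53 ± 0.07, adjusted p = 2.5e-06) were lower as well. GAS6-DT, which lies beside GAS6, rose, with 1.47, 0.529 and 1.08 CPM and 4.90, 4.43 and 4.03 CPM (2.09 ± 0.25, adjusted p = 1.4e-07).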
